A study of Mus musculus with 18 samples.

Results

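The genes described here are 9 chemokine and chemoattractant receptors of the mouse: Ccr1, Ccr2, Ccr3, Ccrl2, Cx3cr1, Fpr1, Fpr2, Cmklr1 and Ackr3. They were picked out by gene name in a table of read counts that lists 21734 protein-coding genes. Of the 9, 8 passed a filter on low counts, as did 11357 genes in all, and the exception, Ackr3, was at or near 0 counts throughout. The RNA came from bone marrow-derived macrophages (BMDMs) of mice that were wild type (WT), homozygous for a deletion of miR-146a (KO) or homozygous for the 3′F allele, in which the 3′ part of the mature microRNA was exchanged for the sequence of the opposite strand while the seed stayed intact. The labels give an age of 6 to 7 months and a 129/B6 mixed background for all animals, with 3 mice per genotype. Their marrow was grown for 8 to 9 days with M-CSF at 10 ng/ml and then received fresh medium either without LPS (resting) or with 1 ng/ml LPS for 16 hours. This gave 6 groups of 3 libraries, 18 in all. Both mutant alleles were made by gene targeting in embryonic stem cells and are present in every cell of the animal, so marrow precursors also lacked or carried them before culture.

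Chemoattractant receptors are membrane-spanning receptors coupled to inhibitory G proteins that let leukocytes read gradients of chemokines, bacterial formyl peptides, serum amyloid A or chemerin. In macrophages and their monocyte precursors, Ccr2 drives exit from the marrow, Cx3cr1 binds the membrane-tethered chemokine fractalkine, Ccr1 and Ccr3 bind inflammatory CC chemokines, and Fpr1 and Fpr2 sense formylated peptides. Cmklr1 is the signalling receptor for chemerin, Ccrl2 holds chemerin at the cell surface without signalling in the usual way, and Ackr3 is an atypical receptor that takes up CXCL12. miR-146a is an LPS-induced microRNA best known for damping Toll-like receptor signalling through Irak1 and Traf6.

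Sequences are shown here for the 3 receptors that moved most between groups, Fpr1, Fpr2 and Cmklr1, and for the microRNA that distinguishes the genotypes. The RefSeq mature miR-146a-5p (chr11:43374435-43374456, GRCm38, minus strand, 22 nucleotides) is printed with its seed, nucleotides 2 to 8, in capitals. Its relative miR-146b-5p (chr19:46342790-46342811, plus strand), which is a separate gene, has the same seed.
miR-146a-5p: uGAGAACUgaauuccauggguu
miR-146b-5p: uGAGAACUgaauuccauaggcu
None of the 9 receptors (0 of 9) held a 7mer or 8mer seed match in its longest annotated 3′ UTR. Such a match is AGTTCTC, which pairs with nucleotides 2 to 8, or GTTCTC followed by A. Among the 11261 tested genes with a 3′ UTR, 20.7% held a 7mer or 8mer match. For scale, Irak1 held 3 such matches and Traf6 held 4. The 3′ UTRs of the receptors ran from 160 bases in Fpr1 to 2701 in Ccr2. A shorter match, GTTCTC to nucleotides 2 to 7, was found in 1 of them, that of Cx3cr1, from base 2283 of 2587. A match of either kind was present in 33.5% of the tested genes.
Cx3cr1 3′ UTR, match in capitals: tcaagatagGTTCTCtctatgt

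The promoters of the 3 receptors are printed because these genes rose together. Each runs from 250 bases before to 50 after the RefSeq start, on the gene's own strand in GRCm38, with matches to short transcription factor motifs in capitals. The motifs searched on both strands were AP-1 (TGANTCA), C/EBP (TTNNGNAA), PU.1 (GAGGAA), GAS (TTCNNNGAA), ISRE (GAAANNGAAA) and kappaB.
Fpr1 (chr17:17883890-17884189, minus strand): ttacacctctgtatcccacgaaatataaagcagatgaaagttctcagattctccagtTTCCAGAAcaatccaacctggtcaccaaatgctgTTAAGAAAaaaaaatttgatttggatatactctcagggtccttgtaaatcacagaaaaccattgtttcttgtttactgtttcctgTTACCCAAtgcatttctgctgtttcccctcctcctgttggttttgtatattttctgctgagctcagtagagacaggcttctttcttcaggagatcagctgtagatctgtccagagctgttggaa
Fpr2 (chr17:17887574-17887873, plus strand): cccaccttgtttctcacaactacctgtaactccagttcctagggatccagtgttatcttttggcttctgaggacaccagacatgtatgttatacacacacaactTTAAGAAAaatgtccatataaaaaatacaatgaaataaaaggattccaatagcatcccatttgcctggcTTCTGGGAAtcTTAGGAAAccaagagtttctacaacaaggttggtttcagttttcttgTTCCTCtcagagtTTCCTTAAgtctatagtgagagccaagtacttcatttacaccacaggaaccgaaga
Cmklr1 (chr5:113643554-113643853, minus strand): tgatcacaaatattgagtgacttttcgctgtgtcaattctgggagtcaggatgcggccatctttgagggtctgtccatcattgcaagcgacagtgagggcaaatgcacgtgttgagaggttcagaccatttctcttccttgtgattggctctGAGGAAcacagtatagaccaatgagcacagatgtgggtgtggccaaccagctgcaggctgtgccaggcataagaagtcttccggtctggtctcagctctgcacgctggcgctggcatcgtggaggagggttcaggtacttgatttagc
The Fpr1 window held 3 C/EBP matches, which begin 193, 159 and 74 bases before the start. The Fpr2 window also held 3, from 146, 66 and 6 bases before it, with a GAS match from 77 and a PU.1 match from 19 bases before the start. Cmklr1 held only a PU.1 match, from 98 bases before its start. Among 32851 promoter windows of the same length, 40.7% held a C/EBP match, 28.3% a PU.1 match and 8.3% a GAS match. Matches to kappaB, present in 4.51% of windows, were found in Ccr3, where the letters overlap a PU.1 match, and in 1 of the 3 promoters of Ccrl2. The Cx3cr1 window held none of the 6 motifs. These are matches of letters, and no binding was measured.

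In the genome (GRCm38, GENCODE annotation) 5 receptors lie on chromosome 9 and 2 on chromosome 17. Ccr1 (chr9:123962124-123968692, minus strand), Ccr3 (chr9:124021972-124031689, plus) and Ccr2 (chr9:124101950-124113557, plus) share a cluster that spans 151.4 kb. Cx3cr1 (chr9:119901616-120069879, minus) and Ccrl2 (chr9:111054486-111057519, minus) stand apart from it. Fpr1 (chr17:17876471-17883940, minus) and Fpr2 (chr17:17887824-17893952, plus) point away from each other, with 3884 bp between their starts. Cmklr1 lies at chr5:113612354-113650426 (minus) and Ackr3 at chr1:90203980-90216751 (plus). The annotated span of Cx3cr1 overlaps 5 other coding genes, and that of Fpr2 overlaps Fpr3. Fpr3 had 0 to 6 counts per library, its relatives Fpr-rs3, Fpr-rs4, Fpr-rs6 and Fpr-rs7 had at most 1, and Ccr1l1, a near copy of Ccr1, had 0 to 11, so few reads were assigned to the close copies.

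Total counts ran from 4071084 to 19818043 per library. In a principal component analysis the first component held 61.8% of the variance and separated LPS from resting cultures, except that resting KO replicate 3 lay at -19.7, beside the LPS libraries (-70.6 to -17.4) and away from the other resting KO libraries (28.2 and 31.4). Resting 3′F replicate 3, the shallowest library, stood apart on the second component (-50.3, against -17.9 to 33.1 in all others). Where leaving out either library changed a call or moved a called value by over 1.5 times, both values are given. miR-146a is not a protein-coding gene and was not measured in this table, so the genotypes were not checked with it. All 8 macrophage markers passed the filter, with a summed level of 31800 to 87900 CPM (counts per 1000000 reads, scaled between libraries by the TMM method). Neutrophil markers summed to 13.4 to 66.3 CPM, with Ly6g at no more than 2 counts. T and NK cell, B cell, mast cell and erythroid markers summed to at most 1.17 CPM and stromal markers to at most 5.29. In these bulk samples, fewer cells of a type and less RNA per cell cannot be told apart.

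Among resting WT macrophages, compared per kb of exon, Ccr1 stood highest, at 18.7 ± 5.18 CPM per kb (SD, n = 3), above all other receptors in every library. Ccrl2 (10.3 ± 2.7) and Cx3cr1 (9.96 ± 1.6) came next and overlapped each other. Cmklr1 (3.54), Ccr2 (3.16), Fpr2 (2.22), Ccr3 (1.77) and Fpr1 (1.14) formed a low group in which neighbours overlapped. After LPS the order in WT macrophages was different. Fpr2 led with 174 ± 41.4 CPM per kb, then Fpr1 with 60.5 ± 17.9, each above the next in every library. Ccr1 (21.5), Cx3cr1 (16.6), Ccrl2 (15.1) and Cmklr1 (13.2) followed and overlapped their neighbours, with Ccr3 (4.24) and Ccr2 (3.33) last. The 3′F macrophages had the same order at the top after LPS, with Fpr2 at 190 and Fpr1 at 61.1 CPM per kb. In KO macrophages with LPS, Fpr2 reached 424 and Fpr1 124 CPM per kb, and Cx3cr1 (9.43) lay below Cmklr1 (27.8), Ccrl2 (26) and Ccr1 (20.6) in every library. At rest, KO macrophages had Fpr2 first by its mean (31.1 ± 28.9), but its spread covered Ccr1 (18.9), Ccrl2 (17.9), Cx3cr1 (17.3), Cmklr1 (13.5) and Fpr1 (12.4).

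**Figure D1:**
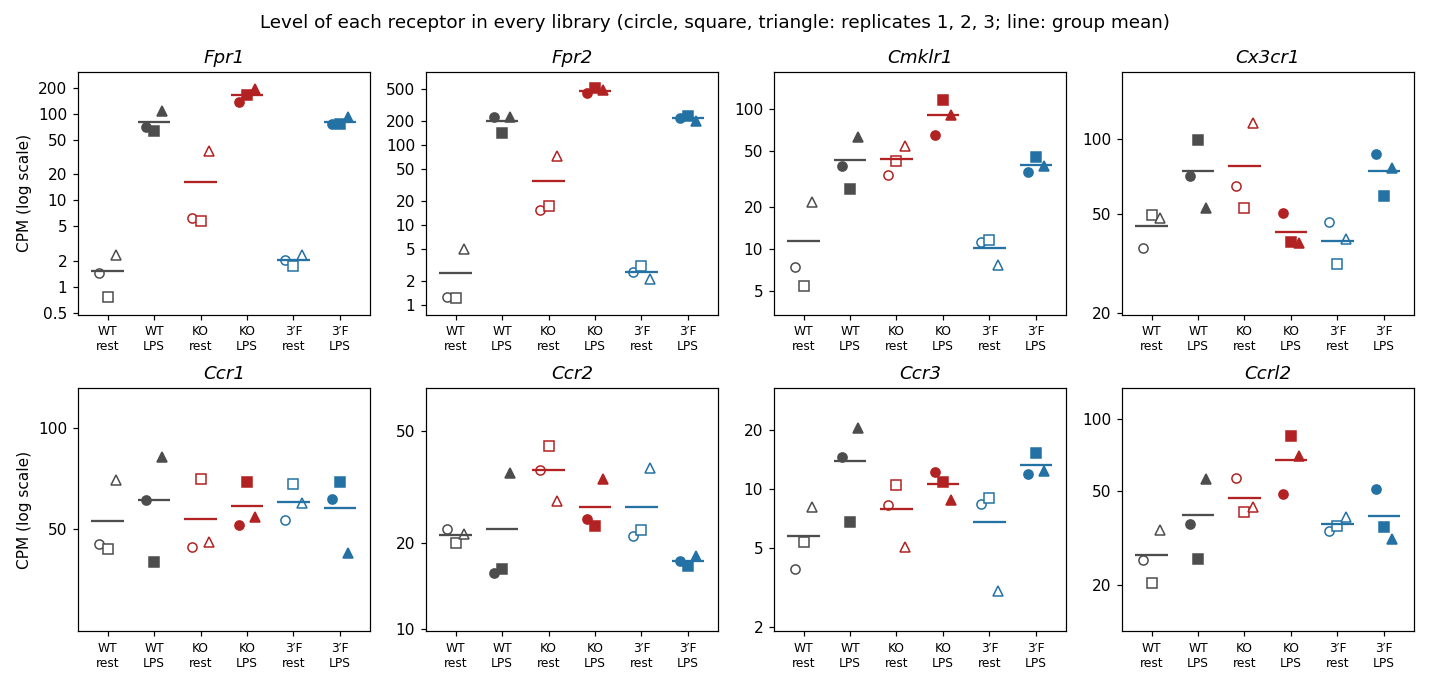
Level of 8 receptors (y axis, TMM-scaled CPM, log scale) in each of the 18 libraries (symbols, replicates 1 to 3) by genotype and treatment (x axis), with the group mean as a line. Fpr1 and Fpr2 span the widest range, from 0.753 to 191 CPM and from 1.2 to 508 CPM, and resting KO replicate 3 lies far above the other resting KO libraries for both.

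The first comparison asks how LPS changed the receptors in WT macrophages. Fpr1, Fpr2, Cmklr1 and Ccr3 rose, and no member fell. The formyl peptide receptors rose most, 54.5-fold for Fpr1 and 82.5-fold for Fpr2. Resting WT replicate 3 had the highest Fpr2 and Cmklr1 of its group, and without it the log2 response was 7.31 ± 0.69 in place of 6.37 for Fpr2 and 2.74 ± 0.36 in place of 1.93 for Cmklr1. Of the 8 members tested, 4 rose and 0 fell, where 16.3% of the 11357 genes tested rose and 12.3% fell. The members' median log2 change was 1.01, beside 0.016 over all tested genes. All differences come from edgeR's quasi-likelihood test, given as log2 differences ± SE and with p-values adjusted over all tested genes (Benjamini-Hochberg, called under 0.05). The labels give 3 mice per genotype but do not tie each library to a mouse outright, so p-values measure the spread between these libraries.

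Fpr1, the high-affinity formyl peptide receptor of phagocytes, was low at rest in WT and 3′F. In WT, its level was 1.45, 0.753 and 2.32 CPM in the resting libraries (replicates 1, 2 and 3) and 69.9, 63.4 and 107 CPM with LPS. In KO, resting libraries had 6.18, 5.66 and 37.3 CPM and LPS libraries 137, 165 and 191 CPM. In 3′F, they had 2.03, 1.74 and 2.34 CPM at rest and 76.4, 75.9 and 90.6 CPM with LPS. Every LPS library of a genotype lay above its resting libraries, every resting KO library lay above every resting library of the other genotypes, and the KO libraries were highest with LPS too. The log2 LPS response of Fpr1 was 5.77 ± 0.64 in WT (adjusted p = 8.44e-06), 5.36 ± 0.64 in 3′F (1.39e-05, 41.1-fold) and 3.38 ± 0.52 in KO (0.000171, 10.4-fold). Without resting KO replicate 3 the KO response was 4.79 ± 0.29 (1.28e-08).

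Fpr2, which binds formyl peptides, serum amyloid A and annexin A1, behaved like its neighbour. Resting WT libraries had 1.25, 1.2 and 5.03 CPM, and LPS raised them to 225, 142 and 219 CPM. Resting KO libraries had 15.1, 17.1 and 72.2 CPM, and KO libraries with LPS 439, 508 and 478 CPM. Resting 3′F libraries had 2.6, 3.01 and 2.11 CPM, and those with LPS 213, 229 and 196 CPM. Again the KO libraries were highest in both states, without overlap with either other genotype, and WT and 3′F overlapped in both. The log2 response was 6.37 ± 0.62 in WT (adjusted p = 2.01e-06), 6.31 ± 0.62 in 3′F (2.03e-06, 79.3-fold) and 3.79 ± 0.52 in KO (5.02e-05, 13.8-fold), or 4.88 ± 0.36 in KO (8.58e-08) without resting KO replicate 3. Per kb, Fpr2 exceeded Fpr1 by 2.41 to 3.81 times in WT libraries with LPS, by 2.96 to 3.79 times in KO libraries with LPS and by 2.56 to 3.57 times in 3′F libraries with LPS. At rest the ratio was 1.02 to 2.56 in WT, 1.06 to 2.05 in 3′F and 2.29 to 3.58 in KO libraries, so that WT and KO overlapped and 3′F and KO did not.

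Cmklr1 is the chemerin receptor. It stood at 7.42, 5.42 and 21.8 CPM in resting WT libraries and 39.4, 26.8 and 63.1 CPM with LPS. In KO it stood at 33.8, 43 and 55.1 CPM at rest and 65.3, 116 and 90.7 CPM with LPS. For 3′F the values were 11.3, 11.6 and 7.73 CPM at rest and 35.9, 45.4 and 39.5 CPM with LPS. Resting KO libraries thus lay in the range of WT libraries with LPS, and LPS and resting libraries did not overlap within any genotype. Cmklr1 rose 3.81-fold in WT (1.93 ± 0.41, adjusted p = 0.00245) and 3.82-fold in 3′F (1.93 ± 0.42, 0.00249). In KO its difference, 1.05 ± 0.39, missed the threshold (adjusted p = 0.0553). It passed when cultures of the same animal were paired (1.03, adjusted p = 0.00271) and without resting KO replicate 3 (1.24 ± 0.43, 0.0348). Its partner in chemerin binding, Ccrl2, had 25.4, 20.4 and 34.2 CPM in resting WT and 36.2, 25.6 and 56.1 CPM with LPS. In KO it had 56.3, 40.5 and 42.7 CPM at rest and 48.3, 84.7 and 69.8 CPM with LPS, and in 3′F 33.7, 35.6 and 38.6 CPM at rest and 50.7, 35.2 and 31.2 CPM with LPS. Ccrl2 did not pass the test for an LPS response in any genotype (adjusted p 0.143 to 0.755), and its resting and LPS libraries overlapped in all 3.

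Cx3cr1, the fractalkine receptor, was higher with LPS in WT and 3′F libraries and lower in KO libraries. Its resting WT libraries had 36.6, 49.5 and 48.5 CPM and its WT libraries with LPS 71.3, 99.8 and 53.1 CPM. The resting KO libraries had 64.9, 52.8 and 117 CPM, and those with LPS 50.4, 38.7 and 38.2 CPM. The resting 3′F libraries had 46.5, 31.5 and 39.6 CPM, and those with LPS 87.6, 59.4 and 77 CPM. Resting and LPS libraries did not overlap in any genotype, but KO was lower with LPS in all 3 libraries. The rise in 3′F passed the test (0.93 ± 0.28, adjusted p = 0.0189, 1.90-fold) and the fall in KO did too (-0.88 ± 0.28, 0.0266, 1.83-fold lower), while the difference in WT, 0.74 ± 0.28, did not (0.0558). The fall in KO missed the threshold without resting KO replicate 3 (-0.47 ± 0.24, adjusted p = 0.147), without KO replicate 2 with LPS (0.0749), without KO replicate 3 with LPS (0.0875), with both libraries that stand apart left out (-0.55, 0.0831) and in a fit on the KO groups alone (0.0645). The rise in 3′F missed it without resting replicate 2 (0.0715) or LPS replicate 1 (0.0746). The WT difference passed when cultures of the same animal were paired (0.71, adjusted p = 0.0468).

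Of the CC chemokine receptors, Ccr3 alone moved with LPS in WT. Ccr3, known best from eosinophils, had 3.94, 5.35 and 8.12 CPM in resting WT and 14.6, 6.76 and 20.3 CPM with LPS, so its groups overlapped. Its log2 response was 1.28 ± 0.39 (adjusted p = 0.0214, 2.42-fold), and the call was lost without WT replicate 1 at rest (0.0901), replicate 2 at rest (0.072), replicate 1 with LPS (0.058) or replicate 3 with LPS (0.90, adjusted p = 0.136). KO libraries had 8.28, 10.5 and 5.05 CPM at rest and 12.2, 10.8 and 8.77 CPM with LPS, and 3′F libraries 8.35, 8.98 and 3.04 CPM at rest and 11.9, 15.2 and 12.3 CPM with LPS. The 3′F difference, 0.85 ± 0.38, missed the threshold (adjusted p = 0.102) and passed it with the animals paired (0.92, 0.0438). Without resting 3′F replicate 3, which had the lowest Ccr3 of all libraries, it was 0.57 ± 0.38 (0.29). Eosinophil markers summed to no more than 2.45 CPM in any library, with Ear1 at 0 counts throughout and Prg2 at no more than 1 count.

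Ccr1, a receptor for CCL3, CCL5 and related chemokines, was present at much the same level in all 18 libraries. WT had 45.4, 43.8 and 70 CPM at rest and 61.2, 40 and 82 CPM with LPS. KO had 44.3, 70.6 and 46 CPM at rest and 51.4, 69.3 and 54.6 CPM with LPS, and 3′F had 53.5, 68.3 and 59.7 CPM at rest and 61.5, 68.9 and 42.7 CPM with LPS. The 6 groups overlapped, and no comparison passed the test for Ccr1. Its 95% interval for the log2 LPS response ran from -0.35 to 0.76 in WT, from -0.43 to 0.67 in KO and from -0.62 to 0.49 in 3′F. Ccr2, the CCL2 receptor of classical monocytes, had 22.5, 20 and 21.6 CPM in resting WT and 15.7, 16.2 and 35.6 CPM with LPS. Resting KO libraries had 36.3, 44.2 and 28.3 CPM and KO libraries with LPS 24.4, 23 and 33.7 CPM. In 3′F, Ccr2 had 21.2, 22.4 and 37 CPM at rest and 17.4, 16.6 and 18 CPM with LPS. Ccr2 passed no test of an LPS response (adjusted p 0.124 to 0.882). Its 3 resting KO libraries lay above the 3 resting WT libraries. The 3′F libraries with LPS also lay below the resting 3′F libraries and below the KO libraries with LPS. The share of all tested genes with such separations was not counted.

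Ackr3, the scavenging receptor for CXCL12, had 0 counts in 16 of the 18 libraries, 2 counts in KO replicate 1 with LPS (0.138 CPM) and 7 counts in resting 3′F replicate 3 (1.64 CPM). A count of 0 allows up to 3 counts, or 0.164 to 0.699 CPM depending on the library, so Ackr3 was not detectable at this depth in most libraries. The other 8 members had at least 9 counts in every library.

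**Figure D2:**
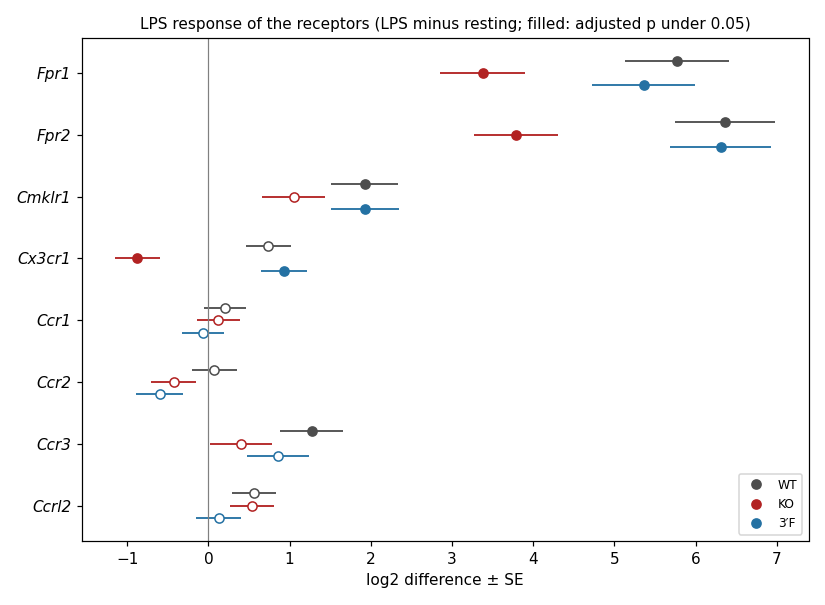
LPS response of 8 receptors (x axis, log2 difference of LPS minus resting, point with ± SE) in WT, KO and 3′F macrophages, filled where the adjusted p is under 0.05. Fpr1 and Fpr2 lie far to the right in all 3 genotypes and nearer to 0 in KO, and Cx3cr1 lies left of 0 in KO and right of it in WT and 3′F.

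In KO macrophages 2 members rose with LPS, Fpr1 and Fpr2, and 1 fell, Cx3cr1, where 14.3% of tested genes rose and 12.6% fell. The members' median was 0.47, beside 0.0185 over all tested genes. In 3′F macrophages 4 members rose, Fpr1, Fpr2, Cmklr1 and Cx3cr1, and 0 fell, where 17.2% of tested genes rose and 14% fell, with a median of 0.89 beside -0.0085. Marker levels of monocytes moved with LPS as well. Their 4 markers summed to 27.1 to 29.2 CPM in resting WT, 65.5 to 91.4 in WT with LPS, 13 to 78.6 in resting KO, 114 to 141 in KO with LPS, 15.5 to 32.3 in resting 3′F and 70.9 to 93.9 in 3′F with LPS. Ly6c2 ran from 0.92 to 99.9 CPM and Spn from 8.79 to 74.4 CPM. Of the 6 dendritic cell markers only Itgax passed the filter, at 24.6 to 226 CPM and highest in KO with LPS. The part of these markers in the receptors' differences was not tested.

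The next comparison sets resting KO against resting WT macrophages, that is, the receptors before any stimulus when miR-146a is missing. Fpr1, Fpr2 and Cmklr1 were higher in KO, 10.8-fold, 14.5-fold and 3.87-fold. The comparison shares its resting WT libraries with the LPS response in WT and its resting KO libraries with the LPS response in KO. In it 3 of the 8 tested members were higher and 0 were lower, where 5.12% of tested genes were higher and 4.27% lower. The members' median was 0.80, beside 0.0169 over all tested genes. The log2 difference was 3.43 ± 0.64 for Fpr1 (adjusted p = 0.00425), 3.86 ± 0.58 for Fpr2 (0.00155) and 1.95 ± 0.42 for Cmklr1 (0.00854). In each of the 3, and also in Ccr2, Ccrl2 and Cx3cr1, the 3 KO libraries lay above the 3 WT libraries. Those other 3 differences missed the threshold, at 0.77 ± 0.28 for Ccr2 (adjusted p = 0.101), 0.81 ± 0.28 for Ccrl2 (0.079) and 0.80 ± 0.28 for Cx3cr1 (0.0838). How many of all tested genes had groups without overlap was not counted. In edgeR's test 2671 genes had an unadjusted p under 0.05.

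Resting KO replicate 3 carried much of the size of the formyl peptide receptor difference but not its call. Without it Fpr1 was 2.02 ± 0.33 higher (adjusted p = 0.0029), Fpr2 2.79 ± 0.37 (0.000746) and Cmklr1 1.77 ± 0.44 (0.0225). Cx3cr1 came down to 0.39 ± 0.24 (adjusted p = 0.391). Resting WT replicate 3 acted the other way, and without it Fpr2 was 4.80 ± 0.64 higher (0.00112) and Cmklr1 2.77 ± 0.36 (0.00104). Resting KO replicate 3 had the highest S100a8 of all libraries, 48.3 CPM, and 28.5 CPM of Ly6c2. The other neutrophil markers did not follow. Its S100a9, at 2.47 CPM, was near the lowest of all libraries (2.41), and Ly6g, Mpo, Elane, Retnlg and Ngp were at 0. Resting 3′F replicate 3 had a similar S100a8 (44 CPM) and the highest S100a9 (16.9 CPM). The part of these markers in the receptor levels of either library was not tested. With both libraries that stand apart left out, Ccr2 passed as well (0.94 ± 0.26, adjusted p = 0.027). Fitted on the libraries of these 2 groups alone, none of the 3 calls held, with adjusted p of 0.085 for Fpr1, 0.0534 for Fpr2 and 0.0887 for Cmklr1.

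**Figure D3:**
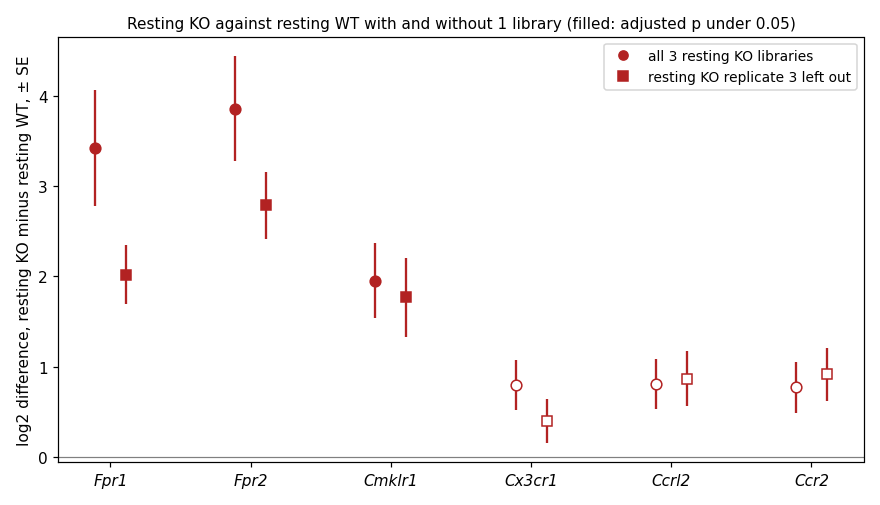
Difference of resting KO minus resting WT (y axis, log2, point with ± SE) for 6 receptors, with all 3 resting KO libraries (circles) and without replicate 3 (squares), filled where the adjusted p is under 0.05. Fpr1 moves from 3.43 to 2.02 and Fpr2 from 3.86 to 2.79, both still filled, while Cmklr1 moves little.

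With LPS, KO macrophages were compared with WT macrophages after the same stimulus. Fpr1, Fpr2 and Cmklr1 were again above WT in every library and Cx3cr1 was below WT in every library, but no difference passed the test. Here too, how many of all tested genes had groups without overlap was not counted. The log2 differences were 1.04 ± 0.47 for Fpr1 (adjusted p = 0.257), 1.28 ± 0.47 for Fpr2 (0.132), 1.07 ± 0.39 for Cmklr1 (0.128), 0.78 ± 0.27 for Ccrl2 (0.112) and -0.82 ± 0.28 for Cx3cr1 (0.102). By edgeR's quasi-likelihood test, 0 of 8 members were called, where 1.89% of tested genes were higher and 2.9% lower, and 5 members had an unadjusted p under 0.05, as did 2041 genes. DESeq2 called 1 member, a fit on these 2 groups alone 2, and limma with quality weights 4. Over all genes these called 983 of 11357, 1031 of 10903 and 1777 of 11357, in the same order. The members' median was 0.53, beside 0.0143 over all tested genes.

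The 3′F comparison asks whether the exchanged 3′ part of the microRNA changed the receptors while the seed was kept. No member passed the test against WT. At rest, 0 of 8 were called by edgeR's quasi-likelihood test, as were 0% of all tested genes (557 genes had an unadjusted p under 0.05), and with LPS 0 of 8 were called, where 0.00881% of genes were (106 genes at an unadjusted p under 0.05). DESeq2, limma with quality weights and the fits on each pair of groups alone also called 0 members. The log2 differences ran from -0.20 to 0.43 at rest (adjusted p 0.843 to 0.975) and from -0.38 to 0.13 with LPS (adjusted p of 1 for each), and all groups overlapped. Without resting 3′F replicate 3 those at rest ran from -0.20 to 0.60, with an adjusted p of 1 for each. The medians were 0.24 at rest, beside 0.00299 over all genes, and -0.037 with LPS, beside -0.00625. How small a difference this leaves depends on the gene. At rest the 95% interval for 3′F minus WT ran from -1.21 to 2.05 for Fpr1, from -1.2 to 1.57 for Fpr2 and from -1.01 to 0.81 for Cmklr1. With LPS it was -0.98 to 1.01 for Fpr1, -0.85 to 1.1 for Fpr2, -0.92 to 0.73 for Cmklr1 and -0.58 to 0.57 for Cx3cr1.

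KO was also set against 3′F, that is, loss of the whole microRNA against the change of its 3′ part. Per the paper, the KO and 3′F lines were backcrossed and bred separately, so allele and line cannot be told apart here. At rest 4 of 8 members were higher in KO and 0 were lower, where 6.79% of tested genes were higher and 6.1% lower. Fpr1 was 8.03-fold higher (3.00 ± 0.63, adjusted p = 0.00882), Fpr2 12.8-fold (3.68 ± 0.58, 0.00218), Cmklr1 4.15-fold (2.05 ± 0.42, 0.00809) and Cx3cr1 1.99-fold (0.99 ± 0.28, 0.0304). This comparison uses the same resting KO libraries as the one against WT. Without resting KO replicate 3, Fpr1 was 1.60 higher (adjusted p = 0.00943) and Fpr2 2.58 (0.000903), and Cx3cr1 no longer passed (0.59 ± 0.24, 0.13). Cx3cr1 also missed the threshold without resting 3′F replicate 3 (1.00 ± 0.32, 0.0743) or replicate 2 (0.85, 0.0829), with both libraries that stand apart left out (0.62, 0.19) and in a fit on these groups alone (0.204). Without resting 3′F replicate 3, Fpr1 (3.04 ± 0.71, 0.0249), Fpr2 (3.60 ± 0.66, 0.00833) and Cmklr1 (1.94 ± 0.47, 0.029) still passed, and in the fit on these groups alone Fpr1 (0.165) and Fpr2 (0.095) did not. The members' median was 0.73, beside 0.00759 over all genes. With LPS 0 of 8 members passed edgeR's quasi-likelihood test, where 1.51% of tested genes were higher and 2.37% lower. There 6 members had an unadjusted p under 0.05, as did 1921 genes, and Cmklr1 was at 1.17 ± 0.39 (adjusted p = 0.111), Fpr2 at 1.16 ± 0.46 (0.197) and Cx3cr1 at -0.81 ± 0.28 (0.119). DESeq2 called 2 of them, limma with quality weights 5 and the 2 groups alone 6. Over all genes these called 801 of 11357, 1842 of 11357 and 1661 of 10916, in the same order.

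**Figure D4:**
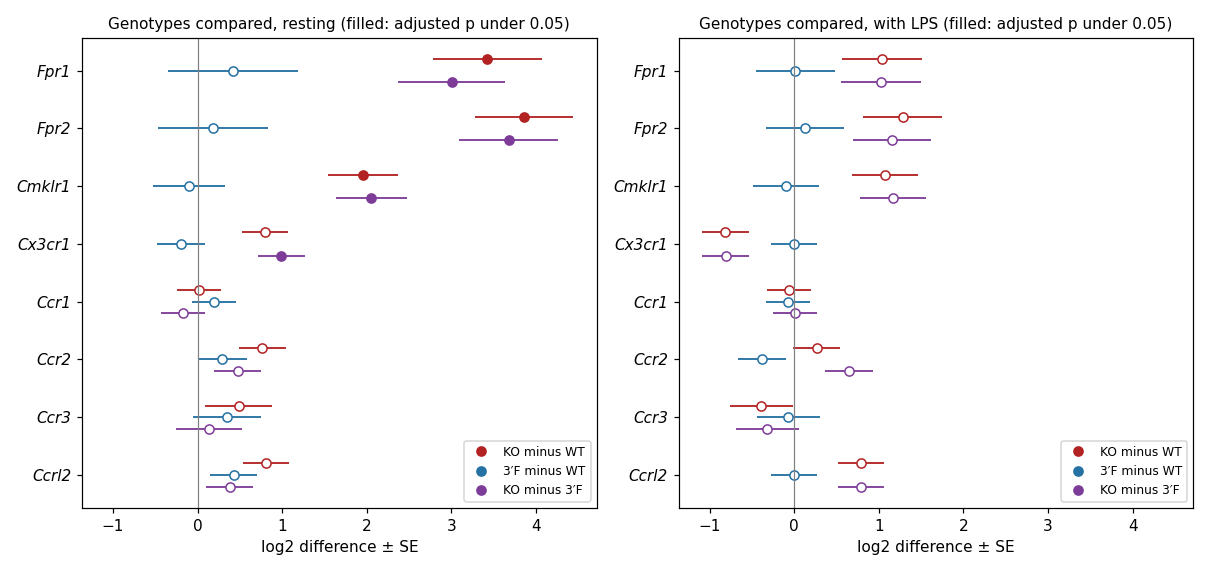
Differences between genotypes for 8 receptors (x axis, log2 difference, point with ± SE) at rest (left) and with LPS (right), filled where the adjusted p is under 0.05. At rest KO differs from both WT and 3′F in Fpr1, Fpr2 and Cmklr1, whereas the points of 3′F minus WT lie between -0.20 and 0.43.

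Whether LPS acted differently in KO than in WT was tested as the difference between the LPS responses. By edgeR's quasi-likelihood test, 0 of 8 members passed, as 0.00881% of tested genes did (560 genes at an unadjusted p under 0.05). Cx3cr1 had the smallest p of the members, with a difference of -1.61 ± 0.39 (unadjusted p = 0.000768, adjusted p = 0.482). Fpr2 was at -2.58 ± 0.73 (adjusted p = 0.507) and Fpr1 at -2.39 ± 0.80 (0.691). Without resting KO replicate 3 these were -1.21 ± 0.33 for Cx3cr1 (0.384), -1.51 for Fpr2 (0.491) and -0.99 for Fpr1 (0.787). DESeq2 called 1 member, Cx3cr1 (adjusted p = 0.039), and 15 of 11357 genes in all. For the LPS response of 3′F minus that of WT, 0 of 8 members and 0% of tested genes passed (203 genes at an unadjusted p under 0.05), with log2 differences from -0.67 to 0.19.

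Resting and LPS cultures with the same genotype and replicate number were taken as coming from 1 animal, so the LPS change could also be read animal by animal. For Cx3cr1 the log2 changes were 0.959, 1.01 and 0.128 in the WT animals, -0.364, -0.444 and -1.61 in the KO animals, and 0.912, 0.913 and 0.957 in the 3′F animals. All WT and 3′F animals had more Cx3cr1 after LPS and all KO animals less. For Fpr2 they were 7.33, 6.71 and 5.4 in WT, 4.84, 4.88 and 2.72 in KO, and 6.28, 6.18 and 6.45 in 3′F. For Cmklr1 they were 2.38, 2.28 and 1.53 in WT, 0.949, 1.43 and 0.717 in KO, and 1.65, 1.96 and 2.33 in 3′F. The KO animals had the 3 smallest changes of Fpr1, Fpr2 and Cmklr1. With 3 animals against 3, an exact two-sided permutation test cannot give a p under 0.1, so these separations are a description. The Fpr1 changes of 3′F (5.22 ± 0.10, SD, n = 3) also lay below all those of WT (5.68 ± 0.40).

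**Figure D5:**
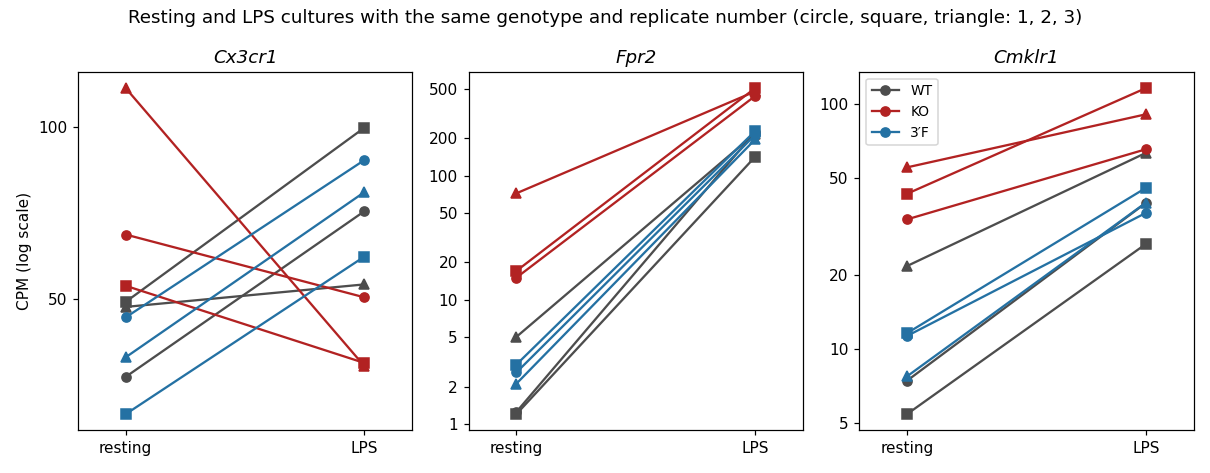
Level of Cx3cr1, Fpr2 and Cmklr1 (y axis, TMM-scaled CPM, log scale) at rest and with LPS (x axis), with a line joining cultures of the same genotype and replicate number. The Cx3cr1 lines slope down in all 3 KO animals and up in the 6 others.

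Across the 18 libraries, Fpr1 and Fpr2 had nearly the same pattern (Pearson r = 0.992 of log2 CPM), and each was also close to Cmklr1 (0.883 and 0.909). These correlations share the libraries, their depth and the LPS contrast, and are given as a description. The genes most like Fpr1 among 10260 were Saa3, Fpr2 and Acod1 (r = 0.992 each), and those most like Fpr2 were Fpr1, Cybb and Gbgt1 (0.991 or more). Cmklr1 was closest to Pla2g7 (0.979), Filip1l and Il10ra (0.952 each). Cx3cr1 was closest to Ap5z1 (0.865), Cc2d2a (0.863) and Mrpl37 (0.793), and Ccr3 to Sestd1 (0.895), Ptafr (0.878) and Mitf (0.877). Ccrl2 was closest to Scarb2 (0.895), Tmem51 (0.858) and Hpn (0.852), and Ccr2 to Pank2 (0.823), Fahd1 (0.791) and Seh1l (0.784). The highest values for Ccr1 were lower, with Penk at 0.734, Mdfic at 0.707 and Zbtb34 at 0.66.

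Of 16 ligands of these receptors, 13 were tested, and in WT 7 rose and 1 fell with LPS. Ccl5, a ligand of Ccr1 and Ccr3, rose from 0.899 to 210 CPM (log2 7.91 ± 1.03, adjusted p = 3.68e-05), and Saa3, an acute-phase serum amyloid A, from 60.1 to 10720 CPM (7.48 ± 0.92, 2.2e-05, or 8.43 without resting WT replicate 3). Ccl8, which had at most 3 counts in each resting WT library, was at least 37.3-fold higher with LPS (adjusted p = 0.000506), a bound set against 3 counts in each resting library. It was at least 18.5-fold higher without LPS replicate 3, in which Ccl8 reached 17.8 CPM. Anxa1, a ligand of Fpr2, fell from 1289 to 858 CPM (-0.59 ± 0.12, 0.00172). In KO 7 ligands rose and 2 fell with LPS, and in 3′F 7 rose and 1 fell. At rest 3 ligands were higher in KO than in WT and 1 was lower. Ccl24, an eotaxin that binds Ccr3, was 7.35-fold higher (3.16 against 0.439 CPM, adjusted p = 0.00156). It had at most 7 counts in each resting WT library, near the floor of 3 counts, so this fold is rough. Anxa1 was lower (-0.41 ± 0.12, adjusted p = 0.0426). The Anxa1 call was lost in 5 of 6 fits without 1 library, without the filter (0.0953) and with the groups alone (0.166). Saa3 (3.20 ± 0.76, adjusted p = 0.0149) and Ccl5 (3.45 ± 1.02, 0.0451) were also called, but without resting KO replicate 3 they came to 1.37 (adjusted p = 0.112) and 0.35 (0.795), and without resting WT replicate 3 Saa3 was at 4.15. The calls of Saa3 and Ccl5 were lost in 3 and 4 of 6 fits without 1 library, and both with the groups alone (0.159 and 0.228). With LPS only Anxa1 passed between KO and WT, lower in KO (-0.61 ± 0.12, adjusted p = 0.00782). No ligand passed between 3′F and WT in either state.

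Of 32 other chemoattractant receptors, 9 were tested, and in WT 3 rose and 3 fell with LPS. Cxcr4, the CXCL12 receptor, fell from 239 to 32.3 CPM (-2.89 ± 0.27, adjusted p = 1.43e-06). Cxcr3 fell from 7.02 to 2.19 CPM (-1.68 ± 0.26, 0.000178) and Gpr183, an oxysterol receptor, from 43.6 to 16.8 CPM (-1.37 ± 0.24, 0.000452). Ptafr, the receptor for platelet-activating factor, rose from 217 to 311 CPM (0.52 ± 0.17, adjusted p = 0.0326), a call lost in 4 of 6 fits without 1 library. Between resting KO and WT 1 of the 9 was higher and 1 lower, Cxcr3 (-0.95 ± 0.25, adjusted p = 0.0251). With LPS 1 was higher and 2 were lower in KO, Gpr183 (-0.98 ± 0.25, 0.0322) and Cxcr4 (-0.97 ± 0.26, 0.0455). Both of these calls were lost in 5 of 6 fits without 1 library, that of Cxcr4 also with the groups alone (0.0579), and that of Cxcr3 at rest in 4 of 6. The median log2 difference of the 9 was 0.37 for LPS in WT and -0.025 between resting KO and WT, beside 1.01 and 0.80 for the members. None of the 9 passed between 3′F and WT.

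The signalling genes downstream of these receptors, 25 in all and all tested, were split in direction. In WT 9 rose and 6 fell with LPS. Grk3, a kinase that phosphorylates active receptors, rose 2.13-fold (1.09 ± 0.30, adjusted p = 0.012, a call lost in 2 of 6 fits without 1 library), Rac2, a GTPase of leukocyte migration, 2.05-fold (1.04 ± 0.21, 0.00135) and Prex1, a Rac exchange factor, 1.79-fold (0.84 ± 0.14, 0.000421). The regulators of G protein signalling Rgs1, Rgs2 and Rgs10, which shorten the receptor signal, fell. Rgs1 fell from 353 to 41.9 CPM (-3.07 ± 0.29, adjusted p = 1.24e-06), Rgs2 from 233 to 101 CPM (7.82e-07) and Rgs10 from 121 to 65 CPM (0.000351). Between resting KO and WT 3 were higher, Grk5 (0.74 ± 0.13, adjusted p = 0.00271), Plcb3 (0.64 ± 0.14, 0.00854) and Prex1 (0.51 ± 0.14, 0.0352), and 3 were lower, Rgs1 (-1.09 ± 0.27, 0.0173), Rgs18 (-0.60 ± 0.12, 0.00771) and Rgs2 (-0.37 ± 0.11, 0.0363). In fits without 1 library the calls of Rgs2 and Prex1 were lost in 5 and 4 of 6, and with the groups alone all 6 were lost (adjusted p 0.0507 to 0.152). With LPS Rgs1 (-1.23 ± 0.28, adjusted p = 0.018) and Rgs2 (-0.62 ± 0.11, 0.00382) were lower in KO, and Prex1, Plcb3 and Grk2 higher (0.56, 0.52 and 0.33, adjusted p 0.0327 to 0.0359). The call of Rgs2 held without each library, that of Rgs1 was lost in 3 of 6 such fits, that of Grk2 in 5, and those of Prex1 and Plcb3 in all 6. No signalling gene passed between 3′F and WT.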

How the data were processed

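Strand-specific libraries were prepared from the RNA of 18 macrophage cultures (6 groups of 3) after removal of rRNA. Per the submitters' processing notes and the study's methods, the authors trimmed reads with cutadapt 1.8.3, removed ribosomal reads with HISAT2 2.1.0, aligned the rest to mm10 and counted reads per gene with featureCounts 1.5.3, using strand. The authors deposited raw counts, not normalized, for 21734 protein-coding genes. All 18 count columns matched a sample by its label, 0 columns were left unused, and 0 rows lacked a gene name.

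Genes were filtered with filterByExpr (minimum count 10), scaled by TMM and fitted over all 18 libraries with edgeR 4.0.16 in R 4.3.3 (quasi-likelihood test, 2-sided, 11 comparisons, adjusted p under 0.05). Log2 CPM used a prior count of 2. CPM per kb used the deposited exon length. The members and the gene lists were chosen with earlier results of these data known. Named genes beyond the members were, per list and for the LPS response in WT and KO against WT, up to 3 in each direction with the largest change among called genes of average log2 CPM of at least 1. The 3 most similar genes per member were named too. 1 gene that meets the rule is not reported here.

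Depth was 4071084 to 19818043 counts per library, and a floor of 3 counts stands for 0.164 to 0.699 CPM. Floors cover counting error only. In simulated data for resting KO against resting WT over 11357 genes, 66% of 100 genes changed 2-fold and 90% of 100 changed 4-fold were recovered, with 3 false calls. The simulation set each gene at its mean level over all 18 libraries and held no library that stood apart. Its recovery therefore does not speak for genes that were low at rest, such as Fpr1 and Fpr2. Samples of 1 genotype that share a replicate number share a letter in the count table and were taken as the same mouse. Their deviations from the group means correlated at 0.0549, 0.28 and 0.291 in WT, 0.318, 0.0283 and 0.044 in KO and 0.0484, 0.286 and 0.106 in 3′F. Within a genotype, libraries with unlike numbers correlated at -0.268 to 0.121. The highest of these joined resting KO replicate 3 to KO replicate 2 with LPS, above the matched pairs of KO replicates 2 and 3. These values therefore do not settle the pairing for those KO replicates. Across genotypes the numbers pair nothing. Promoters and microRNAs came from RefSeq (GRCm38.p6), in which 9 of 9 members matched, and positions and 3′ UTRs from the GENCODE annotation of GRCm38. Alternatives were other scalings, DESeq2 1.42.0, limma 3.58.1 with quality weights, no filter, each pair of groups alone, an animal block and each library left out.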

Additional observations from a re-analysis of the deposited data

Results flagged for a closer look

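The LPS response of Cx3cr1 stood out because it went in opposite directions between genotypes. All 3 KO animals had less Cx3cr1 with LPS (mean log2 change -0.806 ± 0.697, SD, n = 3), and all 3 WT animals (0.699 ± 0.495) and all 3 3′F animals (0.927 ± 0.0257) had more. The mean of the KO animals minus that of the WT animals was -1.5, and that of the KO animals minus that of the 3′F animals was -1.73. KO animal 3 fell most, at -1.61, against -0.364 and -0.444 in the other KO animals. In edgeR's fit the fall in KO missed the threshold without resting KO replicate 3 (-0.47, adjusted p = 0.147). The rise in WT missed it with all libraries (0.0558). Over all genes, the difference between KO and WT in edgeR's fit was -1.61 with an adjusted p of 0.482. The difference between KO and 3′F was not tested in edgeR's fit. An exact two-sided permutation test of the animals' changes gave p = 0.1 for KO against WT and for KO against 3′F. That is the smallest p it can give with 3 animals against 3, so it cannot decide.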

How the results depend on the processing

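Of 38 member differences with an unadjusted p under 0.05, none changed sign under any alternative. Those called kept the call in 209 retests and lost it in 21, and those not called stayed so in 224 and gained a call in 42. Among the 50 differences with an unadjusted p of 0.05 or more, 72 of the retests had the opposite sign. Of 36 calls of other named genes, 17 were lost without at least 1 of the libraries, 12 of them in most such fits. The number of called members changed by more than 1.5 times in these cases, whose cause was not tested. With the groups alone it went from 3 to 0 for resting KO against WT, from 0 to 2 for KO against WT with LPS, from 4 to 1 for resting KO against 3′F and from 0 to 6 for KO against 3′F with LPS. With DESeq2 these counts were 5, 1, 4 and 2, and 1 member in place of 0 was called for the LPS response of KO minus that of WT. With quality weights 5 members were called for the LPS response in KO in place of 3, 5 for resting KO against WT, 4 for KO against WT with LPS and 5 for KO against 3′F with LPS. Without WT replicate 3 with LPS, 1 member, Ccrl2, was called between KO and WT with LPS (1.13, adjusted p = 0.0342). Leaving out each library in turn gave 3 to 5 called members for LPS in WT, 2 to 4 in KO, 3 to 4 in 3′F, 3 to 4 for resting KO against WT, 0 to 1 with LPS, 3 to 4 for resting KO against 3′F, 0 with LPS, and 0 to 0 for 3′F against WT in both states and for both differences between responses. With the replicate block, 5, 4 and 5 members were called for LPS in WT, KO and 3′F, and between genotypes, where the numbers pair nothing, 3 and 4 at rest and 0 otherwise. The only calls the pairing changed in LPS responses are those given with the results. Over all genes, resting KO against WT called 1067 genes, 396 with the groups alone, 2259 with quality weights, 392 to 700 without 1 of the resting WT libraries and 1669 with both libraries that stand apart left out, an alternative chosen after seeing the data. KO against WT with LPS called 544, and 983 (DESeq2), 1031 (groups alone), 1777 (quality weights) or, without 1 library, as few as 180. Resting KO against 3′F called 1464, and 16 (groups alone), 2916 (quality weights) or 735 (without resting 3′F replicate 3). KO against 3′F with LPS called 441, and 801, 1661 and 1842 by the same 3 alternatives, or as few as 142 without 1 library. LPS called 3240 genes in WT, 3059 in KO and 3546 in 3′F, and 5218, 6073 and 5478 with quality weights. The difference of responses of KO and WT called 1, and 15 (DESeq2), 57 (quality weights) or 33 (without both libraries that stand apart). The depth limits Ackr3, and the 3 libraries per group limit the rest.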
